A study of Mus musculus with 9 samples.

Results

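The 36 genes described here code for the machinery that builds ribosomes, measured by low-input RNA sequencing of mouse haematopoietic stem cells (HSCs), the rare bone marrow cells from which all blood lineages arise. They were taken as a named list of gene symbols, and all 36 were found among the 19454 genes of the deposited tables. They comprise 6 factors of RNA polymerase I transcription, 4 proteins of box C/D and 4 of box H/ACA small nucleolar particles. The others are 8 small subunit processing factors, 10 large subunit assembly factors and a group of 4 nucleolar proteins (chaperones and a helicase). Each library was made from 1500 sorted cells with 12 PCR cycles, and the 9 libraries fall into 3 groups of 3. In the spermidine group, mice had chemogenetic inhibition of neurons in the mPFC and PAG brain regions and received a supplement of spermidine, a polyamine. In the inhibition group, mice had the same silencing without the supplement. The control group carries only that word in its labels. All mice are labelled wild type. AAV, a viral vector for delivering genes, stands in the library names of the spermidine and inhibition groups, and the labels give the control group no virus and no drug, so an effect of virus, surgery or drug cannot be told apart from one of silencing. The receptor, its promoter, the doses, the duration, the age of the mice, the sort markers and the number of mice behind a library are not given in the sources used here. P-values therefore measure only the spread between libraries, which may be technical.

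Ribosome biogenesis starts in the nucleolus, where RNA polymerase I copies a long precursor rRNA from repeated genes. Small nucleolar RNAs packed with proteins guide chemical changes on that precursor, the box C/D particles ribose methylation and the box H/ACA particles pseudouridylation. Processing factors then cut the precursor and fold it with ribosomal proteins into the small and the large subunit. Many genes of this machinery are targets of the transcription factor MYC, which binds the E-box CACGTG. Adult HSCs are known for a low rate of protein synthesis, and changes in their ribosome assembly are among the features described in ageing HSCs of mice.

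Total counts ranged from 16096117 to 25360110 per library, so that a count of 0, taken as fewer than 3 counts, would allow up to 0.117 to 0.184 CPM (counts relative to the library total after TMM scaling); PCR copies do not count as separate molecules, so such floors hold for counting error alone. The lowest count of any of the 36 genes in a library was 40. Log2 expression correlated across genes at 0.996 to 0.997 within groups, at 0.983 to 0.984 between the spermidine and inhibition groups and at 0.921 to 0.929 between either of them and control, which are descriptions across genes. The libraries also differed in genes that mark cell identity. Of 15 HSC marker genes 9 were higher and 5 lower in inhibition over control, and 10 higher and 4 lower in spermidine over control, and together they held 0.0818% of counts in spermidine libraries, 0.0609% in inhibition libraries and 0.0547% in control libraries. Hlf, an HSC transcription factor, averaged 37.6 CPM in spermidine libraries, 22.3 CPM in inhibition libraries and 2.50 CPM in control libraries. Procr, an HSC surface receptor, averaged 7.59, 4.10 and 0.125 CPM in the same order, so that the control value lay at the level of the floor. Slamf1, another surface marker used for HSCs, ran the other way, with 13.8 CPM in spermidine libraries, 17.6 CPM in inhibition libraries and 105 CPM in control libraries, as did Gata2, an HSC and progenitor transcription factor, with 14.5, 9.54 and 56.4 CPM in the same order. The label HSC is therefore carried by different marker levels in the control group than in the other groups.

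The first comparison asked how the machinery differed after silencing of the brain regions. Most of it was lower: 29 of the 36 genes fell in inhibition libraries relative to control libraries, 5 rose and 2 did not pass the test (edgeR quasi-likelihood test, adjusted p under 0.05 over 14461 genes). Over all tested genes 36.1% fell and 36.2% rose, 72.4% in either direction, so a call by itself was common. The median log2 fold change of the 36 genes was -0.43, against 0.021 over all tested genes. All 3 inhibition libraries lay below all 3 control libraries for 30 genes and above them for 6 genes, and the groups overlapped for none, where 74.5% of all tested genes showed no overlap (37.1% lower, 37.4% higher). Together the 36 genes took 0.522% ± 0.0064 of all counts in spermidine libraries, 0.528% ± 0.0051 in inhibition libraries and 0.604% ± 0.0041 in control libraries (SD, n = 3 each). In bulk RNA, fewer cells of a type and less RNA per cell cannot be told apart.

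**Figure D1:**
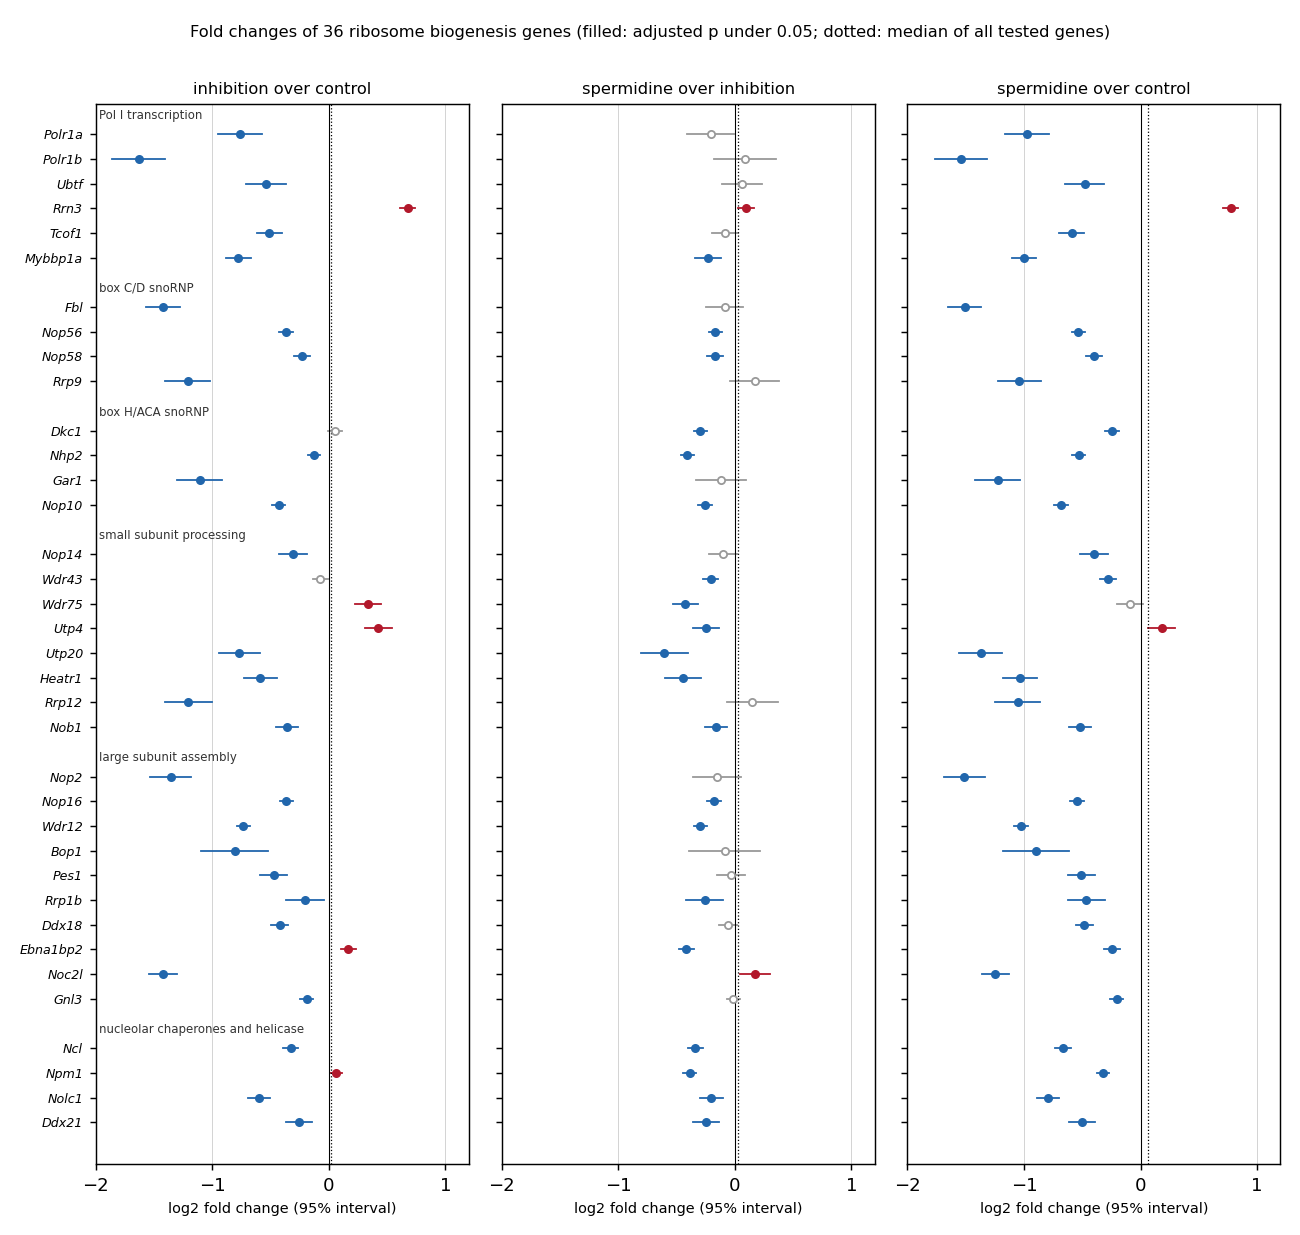
Log2 fold changes (x axis) of the 36 genes (rows, grouped by role) in the 3 comparisons; bars are 95% intervals from the edgeR standard errors, filled points passed an adjusted p of 0.05 and the dotted line is the median of all tested genes. Inhibition over control has 30 genes to the left of 0, of which 29 passed, and 6 to the right, of which 5 passed, with Polr1b lowest at -1.63 and Rrn3 highest at 0.67.

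Markers of other cells moved between the same libraries. Neutrophil granule genes took 6.03% to 6.16% of counts in inhibition libraries, against 0.60% to 0.613% in control libraries, and 15 of 15 listed genes were higher; the lowest of them in control, Ly6g, averaged 0.266 CPM, near the floor. Megakaryocyte and platelet genes took 0.0236% to 0.0243% in inhibition libraries, against 0.307% to 0.313% in control libraries, and 14 of 14 tested genes were lower. Erythroid genes took 0.137% to 0.138% in inhibition libraries, against 0.325% to 0.336% in control libraries. Of 13 tested erythroid genes 7 were lower, Car1 the most at -5.75 (log2), and 6 were higher, with Hbb-bt at 3.02. Immunoglobulin genes held 0.627% to 0.655% of counts in inhibition libraries and 0.00272% to 0.00287% in control libraries. S phase and mitosis genes held 0.252% ± 0.0027 of counts in inhibition libraries and 0.177% ± 0.0026 in control libraries, with 12 of 20 higher and 4 lower. The part of these cell differences in the ribosome biogenesis result was not tested. Leaving 177 genes of other cell types out of the scaling moved the median of all genes by -0.0034 (log2), and 30 of the 36 genes fell and 4 rose. That step changes the library factors alone, so it cannot show what the cell differences contribute.

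**Figure D2:**
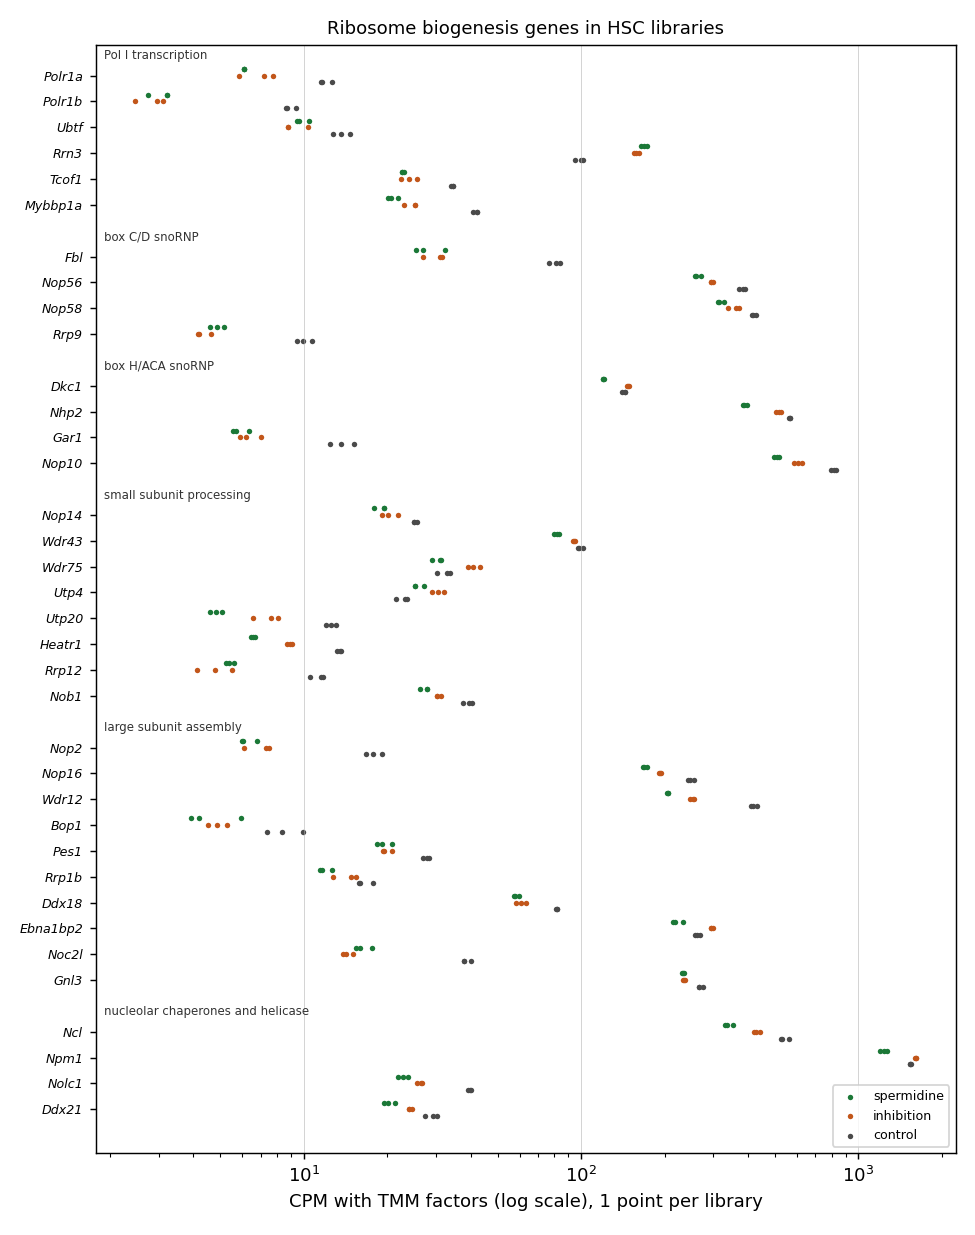
CPM of each of the 36 genes (rows, by role) in each of the 9 libraries on a log scale, with spermidine libraries above inhibition libraries and control libraries below them in each row. Levels run from Polr1b, at 3.22, 2.74 and 3.21 CPM in spermidine libraries, to Npm1, at 1192 CPM or more in every library; control points lie to the right for most genes and to the left for Rrn3 and Utp4.

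In the group of RNA polymerase I transcription, 5 of 6 genes fell and 1 rose. Polr1b, the second largest subunit of the polymerase (ENSMUSG00000027395, chr2:129100995-129126594, plus strand), had 2.46, 2.95 and 3.10 CPM in inhibition libraries, against 9.34, 8.63 and 8.67 CPM in control libraries. This was the largest fall among the 36 genes, to 0.323 of the control level (log2 fold change -1.63, SE 0.12, adjusted p = 1.34e-09). Polr1a, the largest and catalytic subunit, had 5.84, 7.77 and 7.20 CPM in inhibition libraries and 12.6, 11.6 and 11.7 CPM in control libraries, with no overlap (log2 fold change -0.77, SE 0.096). Its call did not hold in TPM, where it averaged 2.27 ± 0.588 in inhibition libraries and 2.38 ± 0.259 in control libraries. Ubtf, which binds the rRNA genes and keeps them open, averaged 9.31 ± 0.933 CPM in inhibition libraries and 13.7 ± 0.916 CPM in control libraries (log2 fold change -0.54). Tcof1, treacle, a nucleolar scaffold of the polymerase, averaged 24.0 ± 1.64 CPM in inhibition libraries and 34.2 ± 0.331 CPM in control libraries (log2 fold change -0.51). Mybbp1a, a nucleolar protein described as a repressor of rRNA genes, averaged 24.5 ± 1.26 and 41.8 ± 0.737 CPM (log2 fold change -0.78).

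Rrn3 went the other way. It encodes the initiation factor (TIF-IA) that makes the polymerase able to start at the rRNA promoter (ENSMUSG00000022682, chr16:13780708-13814839, plus strand). Its CPM was 161, 158 and 155 in inhibition libraries, against 102, 95.4 and 99.8 in control libraries. Every inhibition library was above every control library, and the level was 1.6 times that of control (log2 fold change 0.67, SE 0.035, adjusted p = 1.66e-11). The rise held under each of the 16 alternative analyses, at 0.60 to 0.75 on the log2 scale.

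Promoters are shown for 2 genes that rose and 2 that fell, because the MYC E-box stands in all 4 of them. Sequences are from the RefSeq promoter table (build GRCm38.p6), 250 bases before to 50 bases after the start of transcription, 5′ to 3′ on the gene's strand, with CACGTG in capitals. The first pair are Rrn3 (chr16:13780449-13780748, plus strand) and Utp4 (chr8:106893390-106893689, plus strand), which rose, and the second pair Nop2 (chr6:125131633-125131932, plus strand) and Mybbp1a (chr11:72441077-72441376, plus strand), which fell.
Rrn3: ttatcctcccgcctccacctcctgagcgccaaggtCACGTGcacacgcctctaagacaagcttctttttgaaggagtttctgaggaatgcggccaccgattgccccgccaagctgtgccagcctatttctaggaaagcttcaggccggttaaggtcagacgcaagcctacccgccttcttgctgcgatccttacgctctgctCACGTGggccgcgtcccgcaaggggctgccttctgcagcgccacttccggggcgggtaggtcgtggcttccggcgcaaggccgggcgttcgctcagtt
Utp4: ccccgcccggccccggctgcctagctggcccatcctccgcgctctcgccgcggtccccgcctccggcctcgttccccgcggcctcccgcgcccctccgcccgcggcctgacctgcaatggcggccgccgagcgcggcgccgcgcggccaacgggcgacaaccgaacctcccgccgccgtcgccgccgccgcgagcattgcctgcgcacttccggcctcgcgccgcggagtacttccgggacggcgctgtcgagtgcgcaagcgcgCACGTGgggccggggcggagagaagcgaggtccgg
Nop2: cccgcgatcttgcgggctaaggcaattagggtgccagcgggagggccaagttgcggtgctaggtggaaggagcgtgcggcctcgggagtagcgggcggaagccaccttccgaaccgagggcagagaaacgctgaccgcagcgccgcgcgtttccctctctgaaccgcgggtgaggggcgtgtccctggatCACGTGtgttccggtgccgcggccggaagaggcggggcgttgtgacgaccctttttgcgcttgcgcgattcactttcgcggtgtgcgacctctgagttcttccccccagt
Mybbp1a: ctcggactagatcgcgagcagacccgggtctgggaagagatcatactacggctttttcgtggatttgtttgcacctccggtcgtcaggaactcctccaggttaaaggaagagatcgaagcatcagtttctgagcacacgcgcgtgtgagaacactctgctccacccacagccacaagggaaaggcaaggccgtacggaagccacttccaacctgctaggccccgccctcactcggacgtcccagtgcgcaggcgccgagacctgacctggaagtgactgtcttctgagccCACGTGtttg

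Rrn3 was the only matched gene with the hexamer at 2 places, at positions -215 and -48 from the start; Nop2 held it at -60, Utp4 at 15 and Mybbp1a at 40. The table held 40 promoters of 31 of the 36 genes, and CACGTG (read on both strands, being its own complement) stood in 7 of the 40, or 17.5%, against 9.38% of 13844 promoters of tested genes. The other 3 genes with it were Pes1, Utp20 and Wdr43. The ETS element CCGGAAG was in 25% of the 40 promoters against 16.1% of those of tested genes, the SP1 box GGGCGG in 70.0% against 58.1%, the ZBTB33 element TCGCGAGA in 5.00% against 2.02%, and the YY1 element AAGATGGC in 0 of 40 against 4.05%, each searched on both strands. CACGTG and GGGCGG can share a G at their ends. These are matches of letters and not bound sites. The 7 genes with CACGTG spanned log2 fold changes from -1.36 to 0.67 in inhibition over control, with a median of -0.47, and the 24 matched genes without it had a median of -0.37.

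All 4 box C/D genes fell. Fbl, fibrillarin, the ribose methyltransferase of these particles (ENSMUSG00000046865, chr7:28169710-28179269, plus strand), had 27.0, 31.0 and 31.6 CPM in inhibition libraries, against 83.9, 81.5 and 76.4 CPM in control libraries. No library overlapped, and the level was 0.373 of control (log2 fold change -1.42, SE 0.074, adjusted p = 1.86e-11). Its scaffold partners fell less: Nop56 averaged 295 ± 2.51 CPM in inhibition libraries and 381 ± 9.61 CPM in control libraries (log2 fold change -0.37, SE 0.030). Nop58 averaged 358 ± 17.5 CPM in inhibition libraries and 419 ± 7.39 CPM in control libraries (log2 fold change -0.23, SE 0.035). Rrp9, which binds the U3 small nucleolar RNA needed for early cleavage, had 4.18, 4.61 and 4.15 CPM in inhibition libraries and 9.95, 10.7 and 9.44 CPM in control libraries, all 3 inhibition values below all 3 control values (log2 fold change -1.21).

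Of the 4 box H/ACA genes, 3 fell and 1 did not pass. Gar1, a small protein needed for pseudouridylation, had 5.90, 6.19 and 7.0 CPM in inhibition libraries, against 15.2, 13.7 and 12.5 CPM in control libraries (log2 fold change -1.11, SE 0.099, adjusted p = 2.45e-08). Nop10, a core protein of the same particle, averaged 605 ± 19.1 CPM in inhibition libraries and 816 ± 17.3 CPM in control libraries (log2 fold change -0.43). Nhp2, the RNA-binding core protein, averaged 517 ± 11.6 and 564 ± 2.77 CPM (log2 fold change -0.13), a small fall that was lost in TPM and became 0.053 after centring on GC content. Dkc1, dyskerin, the pseudouridine synthase, which is also a part of telomerase, had 149, 148 and 147 CPM in inhibition libraries and 140.4, 143 and 143 CPM in control libraries (log2 fold change 0.052, adjusted p = 0.123); its value was 0.28 and past the threshold on the log2(TPM + 1) scale, and -0.15 after centring on GC content. The catalytic subunit of one particle thus passed with the second largest fall of the 36 genes and that of the other did not pass.

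The 8 small subunit factors split, with 5 lower, 2 higher and 1 that did not pass. Utp4, a member of the complex that first binds the precursor in yeast (ENSMUSG00000041438, chr8:106893636-106923088, plus strand), had 28.9, 30.4 and 32.0 CPM in inhibition libraries, against 23.7, 21.5 and 23.1 CPM in control libraries (log2 fold change 0.43, SE 0.059, adjusted p = 5.39e-06). Wdr75, of the same early complex, had 43.2, 39.0 and 40.6 CPM in inhibition libraries and 32.9, 30.2 and 33.8 CPM in control libraries (log2 fold change 0.34, SE 0.055). The groups did not overlap for either gene, but Wdr75 was at 11 ± 1.63 TPM in inhibition libraries and 12.0 ± 1.68 TPM in control libraries, so its direction turned per length. Heatr1 and Wdr43 belong to that complex too. Heatr1 fell, averaging 8.92 ± 0.187 CPM in inhibition libraries and 13.4 ± 0.233 CPM in control libraries (log2 fold change -0.59), and Wdr43 averaged 94.3 ± 0.937 and 99.1 ± 1.83 CPM (log2 fold change -0.073, adjusted p = 0.0604, with passes at -0.091 and -0.093 without control replicate 1 or 3). Wdr43 also passed at -0.25 after centring on GC content and at -0.077 with genes of other cell types left out of the scaling. Rrp12, which serves the export of pre-ribosomes in yeast, had 4.12, 5.52 and 4.80 CPM in inhibition libraries, against 11.6, 11.7 and 10.5 CPM in control libraries (log2 fold change -1.2). Utp20, a large scaffold of the small subunit precursor, had 7.62, 6.56 and 8.10 CPM in inhibition libraries and 12.6, 12.1 and 13.1 CPM in control libraries (log2 fold change -0.77). Nob1, the nuclease of the last cut of the small subunit rRNA, averaged 30.5 ± 0.594 CPM in inhibition libraries and 39.2 ± 1.45 CPM in control libraries, and Nop14 averaged 20.4 ± 1.39 and 25.2 ± 0.357 CPM (log2 fold changes -0.36 and -0.31).

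Of the 10 large subunit factors 9 fell and 1 rose. Noc2l, a protein of early large subunit particles that also inhibits histone acetylation (ENSMUSG00000095567, chr4:156236010-156247616, plus strand), had 13.8, 15.0 and 14.2 CPM in inhibition libraries, against 38.0, 40.1 and 37.7 CPM in control libraries (log2 fold change -1.42, SE 0.061, adjusted p = 1.38e-12). Noc2l shares 598 exonic bases, 20.9% of its own, with Samd11 on the opposite strand, which averaged 0.287 CPM in inhibition libraries and 1.28 CPM in control libraries, far below Noc2l. Nop2, a cytosine methyltransferase of the large subunit rRNA, had 7.31, 7.52 and 6.10 CPM in inhibition libraries and 17.8, 16.7 and 19.2 CPM in control libraries (log2 fold change -1.36, SE 0.092). Their levels were 0.373 and 0.39 of control. Pes1, Bop1 and Wdr12 form the PeBoW complex, which is needed to mature the large subunit rRNA, and each fell. Wdr12 averaged 252 ± 3.44 CPM in inhibition libraries and 418 ± 11.3 CPM in control libraries (log2 fold change -0.73, SE 0.029). Per length its fall was much smaller, with 84.6 ± 0.952 TPM in inhibition libraries and 92.9 ± 2.64 TPM in control libraries. Bop1, with the largest standard error of the 36 genes, had 5.29, 4.86 and 4.50 CPM in inhibition libraries and 9.95, 8.37 and 7.38 CPM in control libraries (log2 fold change -0.81, SE 0.15). Pes1 averaged 19.9 ± 0.769 and 27.7 ± 0.705 CPM (log2 fold change -0.47).

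The remaining large subunit genes moved less. The log2 fold changes were -0.42 for Ddx18, an RNA helicase, -0.36 for Nop16, -0.19 for Gnl3, the GTPase nucleostemin, and -0.21 for Rrp1b. The call of Rrp1b (adjusted p = 0.0331) was lost in 7 of the 16 alternatives, among them those without inhibition replicate 3 (-0.14) and without control replicate 1 (-0.16). Ebna1bp2, an assembly factor of early large subunit particles, was the one that rose, with 293, 299.6 and 294 CPM in inhibition libraries, against 263, 258 and 268 CPM in control libraries (log2 fold change 0.17, SE 0.033).

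In the group of nucleolar chaperones and helicase, Nolc1, a chaperone of small nucleolar particles, averaged 26.3 ± 0.488 CPM in inhibition libraries. In control libraries it averaged 39.7 ± 0.474 CPM (log2 fold change -0.60). Ncl, nucleolin, which binds precursor rRNA, averaged 430.3 ± 10.7 CPM in inhibition libraries and 539 ± 18.7 CPM in control libraries (log2 fold change -0.33), and Ddx21, a helicase that joins polymerase I transcription and rRNA modification, averaged 24.2 ± 0.394 and 28.9 ± 1.49 CPM (log2 fold change -0.26). Npm1, nucleophosmin, a histone and ribosome chaperone, was the most abundant of the 36 genes. It had 1619, 1599 and 1611 CPM in inhibition libraries, against 1535, 1539 and 1546 CPM in control libraries. The groups did not overlap but lay close (log2 fold change 0.064, SE 0.027, adjusted p = 0.0407), and the call was lost or turned in 9 of the 16 alternatives, falling to -0.17 after centring on GC content. Leaving out any 1 of the 6 libraries ended it, at 0.048 to 0.063. Of the 34 calls in inhibition over control, 29 held under all 16 alternatives; the other 5 were those of Polr1a, Nhp2, Wdr75, Rrp1b and Npm1.

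The second comparison asked what the spermidine supplement changed under inhibition. Relative to the inhibition libraries, 20 of the 36 genes were lower in spermidine libraries, 2 were higher and 14 did not pass, where 28.9% of all tested genes were lower and 29.1% higher (58.1% in either direction). All 3 spermidine libraries lay below all 3 inhibition libraries for 20 genes and above them for 2, and the groups overlapped for 14, where 62.8% of all tested genes showed no overlap (30.7% lower, 32.1% higher). The direction depends on the scaling between libraries. With total counts in place of TMM factors the split became 6 lower and 14 higher, as the median of all genes rose by 0.261 on the log2 scale, and on the TPM scale it was 1 lower and 14 higher. The median of the 36 genes lay 0.20 (log2) below that of all tested genes, and 30 of the 36 were below it; another library scaling shifts all genes alike and so leaves this distance nearly as it is. On the log2(TPM + 1) scale the median lay 0.067 below that of all genes, with 24 of the 36 below it, and with a pseudocount of 0.1 it lay 0.174 below, with 28 of the 36 below it. Abundant genes of all kinds were lower on the TMM scale: at 100 CPM or more the 12 members had a median of -0.27 and all 1515 genes -0.21, and under 20 CPM the 11 members had -0.12 and all 9965 genes 0.17.

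**Figure D3:**
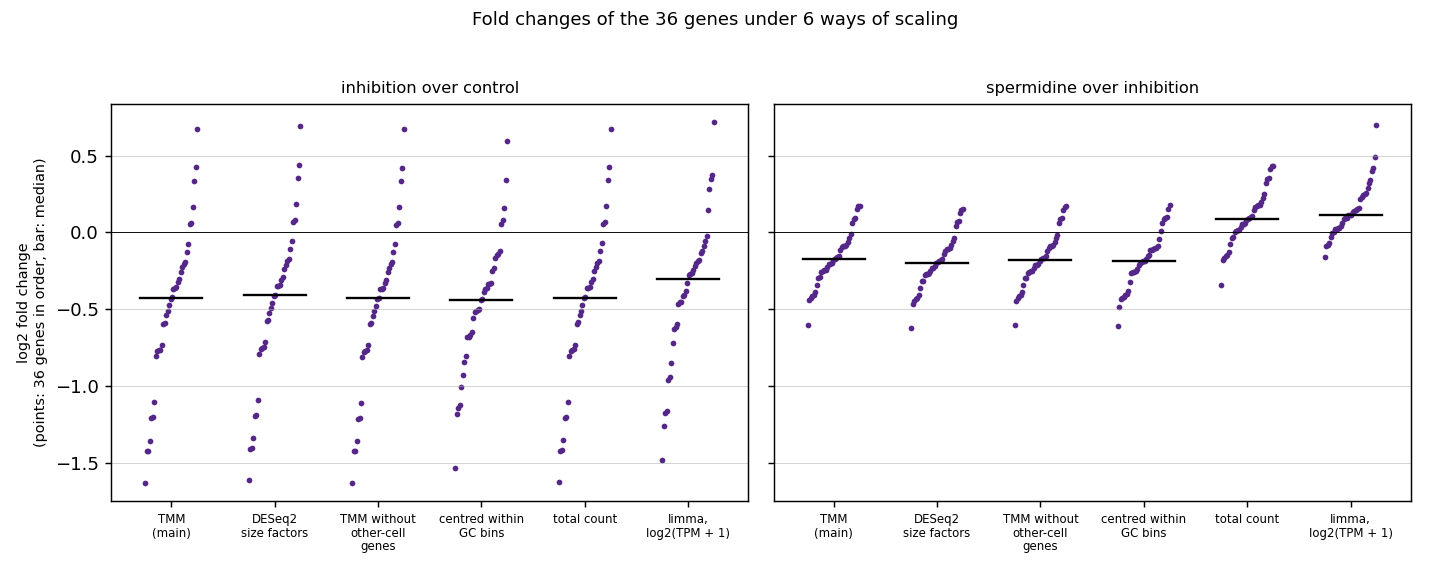
Log2 fold changes (y axis) of the 36 genes, drawn in order of value, under 6 ways of scaling for inhibition over control and spermidine over inhibition, with a bar at the median. The median of inhibition over control stays between -0.30 and -0.44, and that of spermidine over inhibition is -0.18 with TMM factors, 0.086 with total counts and 0.12 on the log2(TPM + 1) scale.

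Single genes of the second comparison are given on the TMM scale with this limit. Utp20 had the largest fall, with 4.84, 5.09 and 4.59 CPM in spermidine libraries, against 7.62, 6.56 and 8.10 CPM in inhibition libraries (log2 fold change -0.60, SE 0.10, adjusted p = 0.000103); on the TPM scale it was at 3.66 ± 0.380 in spermidine libraries and 3.39 ± 0.534 in inhibition libraries. Heatr1 had 6.65, 6.46 and 6.59 CPM in spermidine libraries and 8.73, 8.93 and 9.10 CPM in inhibition libraries (log2 fold change -0.44, SE 0.078). Wdr75 had 29.1, 31.2 and 30.9 CPM in spermidine libraries, against 43.2, 39.0 and 40.6 CPM in inhibition libraries (log2 fold change -0.43) and overlapped the control libraries, which had 32.9, 30.2 and 33.8 CPM. None of these 3 small subunit genes overlapped between spermidine and inhibition libraries. Ebna1bp2 averaged 222 ± 9.49 CPM in spermidine libraries and 295 ± 3.60 CPM in inhibition libraries (log2 fold change -0.41). Nhp2 averaged 389.9 ± 6.20 CPM in spermidine libraries and 517 ± 11.6 CPM in inhibition libraries (log2 fold change -0.41, SE 0.027), and was the only one of the 22 calls to hold under all 16 alternatives, though its fold change was -0.14 with total counts and -0.088 on the log2(TPM + 1) scale. Npm1 had 1267, 1192 and 1232 CPM in spermidine libraries, against 1619, 1599 and 1611 CPM in inhibition libraries (log2 fold change -0.39, SE 0.027), while its TPM averaged 903 ± 11.6 in spermidine libraries and 923 ± 22.0 in inhibition libraries.

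The 2 higher genes changed little on the TMM scale. Rrn3 had 173, 169 and 165 CPM in spermidine libraries, against 161, 158 and 155 CPM in inhibition libraries (log2 fold change 0.096, SE 0.033, adjusted p = 0.0208), and 42.8 ± 0.968 TPM against 32.2 ± 1.01 TPM. Noc2l had 15.4, 16 and 17.6 CPM in spermidine libraries and 13.8, 15.0 and 14.2 CPM in inhibition libraries (log2 fold change 0.17, SE 0.066, adjusted p = 0.0334). Both kept their direction in every alternative, and their calls were lost in 8 and 7 of the 16. Rrn3 lost it without any 1 of inhibition replicates 1, 2 and 3 and spermidine replicates 1 and 2 (0.076 to 0.090), and Noc2l without inhibition replicate 1 or 3 or spermidine replicate 2 or 3 (0.12 to 0.18). For the genes with the 7 largest falls in the first comparison, the log2 fold change here was 0.089 for Polr1b (-0.17 to 0.35), -0.086 for Fbl (-0.24 to 0.072), -0.15 for Nop2 (-0.36 to 0.050), 0.17 for Rrp9 (-0.040 to 0.38), 0.15 for Rrp12 (-0.070 to 0.37) and -0.12 for Gar1 (-0.33 to 0.097), with 95% intervals in brackets, and of the 7 only Noc2l, given above, passed on the TMM scale. With total counts Polr1b, Rrp9 and Rrp12 passed as higher, at 0.35, 0.43 and 0.41. On the log2(TPM + 1) scale Rrp9 passed at 0.70, Rrp12 at 0.25 and Fbl, in the opposite direction to TMM, at 0.23. Without spermidine replicate 2, the highest of its group for Fbl, the fall of Fbl passed at -0.21, and without inhibition replicate 1 that of Polr1a passed at -0.33 and that of Ddx18 at -0.12. The 2 comparisons share the inhibition libraries, so their values are set side by side only.

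The cell markers moved here as well: neutrophil granule genes held 2.6% to 2.71% of counts in spermidine libraries, against 6.03% to 6.16% in inhibition libraries, with 15 of 15 lower. Immunoglobulin genes held 0.297% to 0.317% of counts in spermidine libraries and 0.627% to 0.655% in inhibition libraries, and all 20 S phase and mitosis genes were lower, at a share of 0.228% ± 0.0038 in spermidine libraries and 0.252% ± 0.0027 in inhibition libraries. HSC marker genes held 0.0818% ± 0.00021 in spermidine libraries and 0.0609% ± 0.00049 in inhibition libraries, with 10 of 15 higher and 2 lower. These numbers of genes are on the TMM scale, where 28.9% of all tested genes were lower and 29.1% higher. The S phase and mitosis genes ranged there from -0.85 to -0.11 (log2), and total counts raise the median of all genes by 0.261. The part of these cell differences in the ribosome biogenesis result was not tested. Without 177 genes of other cell types in the scaling, 20 of the 36 genes were lower and 2 higher. The median of all genes moved by -0.0031 (log2), and a change of library factors cannot show what the cell differences contribute.

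Spermidine libraries set against control libraries showed 33 of the 36 genes lower, 2 higher and 1 that did not pass, where 37.1% of all tested genes were lower and 41.0% higher (78.1% in either direction). The libraries did not overlap for 33 lower and 2 higher genes, where 79.8% of all tested genes showed no overlap (37.7% lower, 42.1% higher). The median was -0.54, against 0.060 over all tested genes. Total count scaling, which raised the median of all genes by 0.263, left 28 lower and 3 higher, the TPM scale gave 22 lower and 6 higher, and 22 of the 35 calls held under all 16 alternatives. Nop2 had 6.77, 5.99 and 6.03 CPM in spermidine libraries, against 17.8, 16.7 and 19.2 CPM in control libraries (log2 fold change -1.51, SE 0.091). Polr1b had 3.22, 2.74 and 3.21 CPM in spermidine libraries and 9.34, 8.63 and 8.67 CPM in control libraries (log2 fold change -1.54, SE 0.11). Fbl had 25.3, 32.4 and 26.8 CPM in spermidine libraries and 83.9, 81.5 and 76.4 CPM in control libraries (log2 fold change -1.51, SE 0.074). These genes thus stood at 0.351, 0.344 and 0.351 of their control level with spermidine. Rrn3 was the highest at 0.77 (SE 0.035), and Utp4 rose by 0.18 (SE 0.059, adjusted p = 0.0109), a call that was lost in 4 alternatives, among them those without spermidine replicate 3 (0.14) and without control replicate 2 (0.12). Wdr75 averaged 30.4 ± 1.15 CPM in spermidine libraries and 32.3 ± 1.85 CPM in control libraries (adjusted p = 0.161), and passed at -0.16 without control replicate 2. It also passed as lower with no filter (-0.14), after centring on GC content (-0.24) and on the log2(TPM + 1) scale (-0.28), and as higher with total counts (0.17). The control libraries shared by this comparison and the first make their values dependent.

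Proteins that work in one complex differed in the level of their transcripts, given here in TPM, which is scaled for length. In the box H/ACA core, Nhp2 averaged 477 ± 9.66 TPM in spermidine libraries, 507 ± 8.96 TPM in inhibition libraries and 515 ± 3.44 TPM in control libraries, whereas Gar1 averaged 17.1 ± 0.972, 15.2 ± 1.22 and 30.1 ± 1.32 TPM in the same order. The ratio of the highest to the lowest of the 4 genes was 28 in spermidine, 33.4 in inhibition and 17.4 in control libraries. In the box C/D core, Fbl averaged 29.7 ± 3.90, 25.1 ± 1.3 and 61.5 ± 2.57 TPM beside Nop58 at 278 ± 5.39, 249.6 ± 10.9 and 290.4 ± 8.93 TPM, a ratio of 9.34, 9.94 and 4.72. Among Fbl, Nop56 and Nop58, the transcript of the methyltransferase was thus the scarcest in each group. Snu13, the fourth core protein, averaged 279, 249.6 and 223 TPM, and Rrp9, which joins the U3 particle, 7.75 ± 0.718, 4.4 ± 0.653 and 11.2 ± 1.01 TPM, below Fbl. In PeBoW, Wdr12 averaged 86.1 ± 4.11, 84.6 ± 0.952 and 92.9 ± 2.64 TPM, against 1.94 ± 0.453, 1.64 ± 0.156 and 2.63 ± 0.407 TPM for Bop1. For polymerase I, Rrn3 averaged 42.8 ± 0.968 TPM in spermidine libraries, 32.2 ± 1.01 TPM in inhibition libraries and 19.2 ± 0.612 TPM in control libraries, and Polr1b averaged 0.845 ± 0.144, 0.702 ± 0.0482 and 1.81 ± 0.0808 TPM. The ratio of the initiation factor to that subunit was 50.7 in spermidine, 45.9 in inhibition and 10.6 in control libraries. Npm1 alone held 26.6%, 28.7% and 24% of the counts of all 36 genes in spermidine, inhibition and control libraries.

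**Figure D4:**
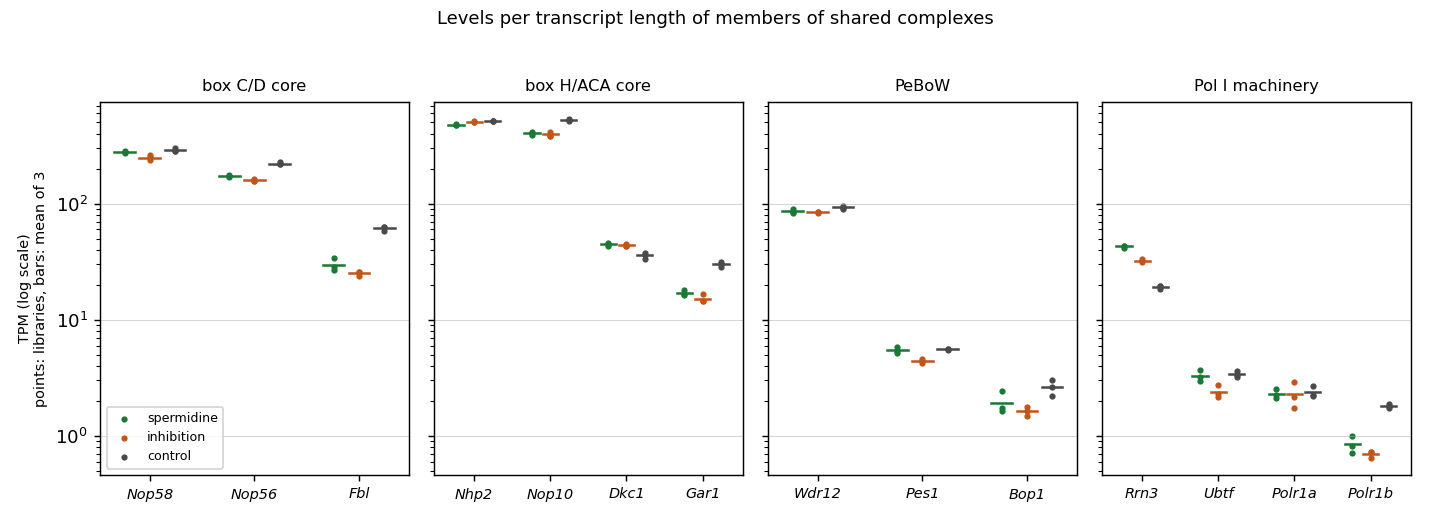
TPM on a log scale of genes whose products share a complex, with 1 point per library and a bar at the mean of 3, spermidine to the left, then inhibition, then control. Fbl, Gar1 and Polr1b are the lowest of their panels, with control libraries above the others, and Rrn3 is higher in spermidine and inhibition libraries than in control libraries.

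The fold changes of the 36 genes varied with their level and their base composition. In inhibition over control the 12 genes with a mean of at least 100 CPM had a median of -0.21, the 13 genes between 20 and 100 CPM -0.42, and the 11 genes under 20 CPM -0.81, while the medians of all tested genes in those classes were 0.0016, 0.063 and 0.0086. Spearman's rho between log2 fold change and level was 0.611 over the 36 genes and -0.046 over all tested genes. With the GC content of the longest coding transcript, rho was -0.631 over the 36 genes and -0.310 over 14449 tested genes in inhibition over control, and 0.512 and -0.074 in spermidine over inhibition. These are descriptions across genes that share the same libraries. The 36 genes had a median transcript GC of 50.4%, close to the 49.1% of all tested genes, and a median length of 2938 bases beside 3132 bases. Centred within 20 bins of transcript GC, an analysis added after seeing the data, the median of the 36 genes was -0.44 in inhibition over control, -0.19 in spermidine over inhibition and -0.59 in spermidine over control, with 30 lower and 4 higher in the first.

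**Figure D5:**
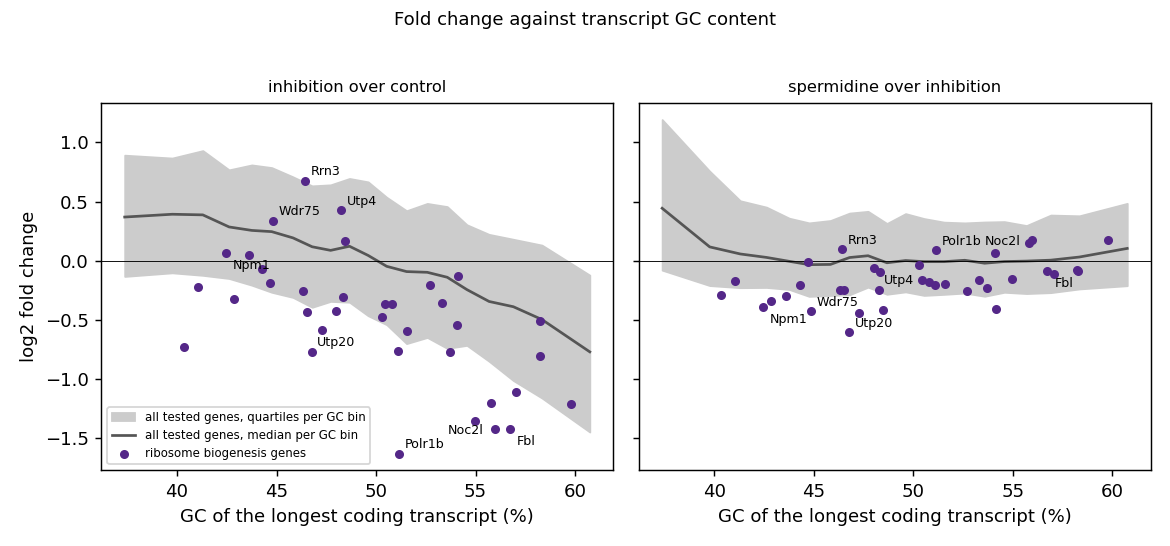
Log2 fold change (y axis) against transcript GC percent (x axis) for the 36 genes (points), with the median and quartiles of all tested genes per GC bin (line and band), for inhibition over control and spermidine over inhibition. In inhibition over control the line falls from low to high GC and most of the 36 genes lie below it, with Polr1b, Fbl and Noc2l below the band and Rrn3 and Utp4 above the line.

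Counts and TPM can part where the transcripts counted for a gene differ between groups, since TPM divides by an estimated length. The ratio of counts to TPM, set against its library median, moved by over 0.5 (log2) in inhibition against control for 4 of the 36 genes, beside 9.80% of 13826 genes. The shift was -0.65 for Polr1a, -0.55 for Wdr12, 0.52 for Wdr75 and 1.02 for Utp20. For these 4 genes the TPM fold change of inhibition over control, tested with limma, was -0.059 for Polr1a, -0.13 for Wdr12, -0.12 for Wdr75 and -1.48 for Utp20 on the log2(TPM + 1) scale. None of the 36 passed that size in spermidine against inhibition, beside 4.85% of genes. Near copies add a further limit. Wdr12 matches the annotated Vmn1r88 at 97.2% over 1377 bases, and Vmn1r88 averaged 16.3 CPM in spermidine libraries, 7.46 CPM in inhibition libraries and 5.55 CPM in control libraries. Wdr12, Fbl, Nop56, Npm1, Pes1, Ddx18 and Ddx21 have processed pseudogenes of at least 95% identity over 200 bases or more. Their levels are therefore uncertain by whatever reads were split. Gm5472, a copy of Pes1, averaged 0.753 CPM in spermidine libraries, 0.0277 CPM in inhibition libraries and 0.242 CPM in control libraries, far below Pes1. The labels name no strand-specific step.

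A trait outside expression was shared by several of the 36 genes. In the GENCODE annotation of the same build, 6 of them (16.7%) held small nucleolar RNA genes within their bounds, against 223 of 14453 tested genes (1.54%). Nop56 held 5, Nop58 held 4, Ncl, Gnl3 and Wdr43 held 3 each and Dkc1 held 1. The 6 host genes had log2 fold changes of -0.37 to 0.052 in inhibition over control (median -0.21), while the other 30 had a median of -0.53 and the 217 other tested host genes one of -0.17. The polyadenylated libraries do not measure the small nucleolar RNAs themselves.

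Other genes of ribosome biogenesis were taken from general lists of the pathway. Of 136 tested genes outside the 36, 72 fell and 37 rose in inhibition over control, and 27 did not pass (median -0.21). In spermidine over inhibition 70 fell, 13 rose and 53 did not pass, a direction that turned with total counts to 12 lower and 62 higher. In spermidine over control 88 fell and 25 rose, against 56 lower and 46 higher with total counts and 37 lower and 57 higher on the log2(TPM + 1) scale. Over all tested genes 36.1% fell and 36.2% rose in inhibition over control, and 28.9% fell and 29.1% rose in spermidine over inhibition. In spermidine over control 37.1% of all tested genes fell and 41.0% rose. Calls in either direction made up 72.4%, 58.1% and 78.1% of all tested genes in the same order. The largest falls among the 136 genes exceeded those of the 36 genes. Gtpbp4, a GTPase of the large subunit precursor, averaged 427 CPM in spermidine libraries, 499 CPM in inhibition libraries and 2132 CPM in control libraries (inhibition over control -2.10, SE 0.043). Ppan, a large subunit factor, averaged 131, 195 and 913 CPM in the same order (-2.23, SE 0.048). Exosc2, a subunit of the RNA exosome that trims precursor rRNA, averaged 65.4, 81.8 and 372 CPM (-2.18, SE 0.060), while the exosome subunit Exosc9 rose (0.64, SE 0.034).

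Among 12 other tested polymerase I genes 6 fell and 3 rose in inhibition over control, a share of calls close to the 72.4% of all tested genes. Ttf1, which ends transcription of rRNA genes, averaged 13.6 CPM in spermidine libraries, 14.5 CPM in inhibition libraries and 35.9 CPM in control libraries (-1.3, SE 0.058). Taf1d, a part of the promoter selectivity factor, averaged 182, 166 and 306 CPM (-0.89). Polr1c and Polr1d, which polymerase I shares with polymerase III, averaged 66.6 and 101 CPM in inhibition libraries and 66.6 and 94.1 CPM in control libraries (log2 fold changes 0.00087, adjusted p = 0.987, and 0.10, adjusted p = 0.0162). Nol11, an early small subunit factor, rose by 0.90 (SE 0.049), with 29.9 CPM in spermidine, 44.5 CPM in inhibition and 23.8 CPM in control libraries.

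Regulators of the pathway differed as well. Myc averaged 100.3 CPM in spermidine libraries, 78.9 CPM in inhibition libraries and 119 CPM in control libraries, a log2 fold change of -0.60 in inhibition over control (SE 0.036). Mycn averaged 10.8, 6.70 and 17.0 CPM (-1.34, SE 0.074). Mxd1, which pairs with MAX at the same E-box and represses, averaged 85.0 CPM in spermidine libraries, 139 CPM in inhibition libraries and 24.8 CPM in control libraries (2.48, SE 0.039). In spermidine over inhibition the log2 fold change was 0.35 for Myc, 0.67 for Mycn and -0.71 for Mxd1. Of 11 tested genes of the MYC network 6 rose and 5 fell in inhibition over control. This was close to the even split of all tested genes, of which 36.2% rose and 36.1% fell. Only some genes of that network are named here, though the plan was to name all. Among the others, Mxi1 rose (0.91, SE 0.085) and Zbtb17 fell (-0.88, SE 0.10) in inhibition over control. Mxd1 is also known as a gene of maturing neutrophils, whose granule genes moved in the same direction in the same libraries, as given above. A link of Mxd1 to either the E-box genes or the neutrophil genes was not tested.

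In inhibition over control, genes that link disturbed ribosome assembly to p53 gave 1 rise and 6 falls among 9 tested. Only some of these 9 are named here. Over all tested genes 36.2% rose and 36.1% fell, 72.4% in either direction, so a call by itself was common. Mdm2, the ligase that removes p53 and is itself a p53 target, averaged 39.8 CPM in spermidine libraries, 43.3 CPM in inhibition libraries and 26.5 CPM in control libraries (0.71, SE 0.044). Trp53 averaged 35.5, 38.4 and 51.2 CPM (-0.41, SE 0.045). Rpl11, a ribosomal protein that binds MDM2 when assembly fails, averaged 414, 477 and 629 CPM (-0.40). Cdkn1a, the p53 target that halts the cell cycle, averaged 40.3, 30.5 and 30.2 CPM, with 0.016 in inhibition over control (adjusted p = 0.818) and 0.40 in spermidine over inhibition (adjusted p = 1.1e-05).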

How the data were processed

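The 36 members and all gene lists were chosen with earlier results of these data known. Per the submitters' processing notes, the build was mm10 and the tools were HTSeq 0.10.0, edgeR 3.24.3, STAR 2.6.1d and Trim Galore 0.6.2; which step made which values is not given in the sources used here. The authors deposited estimated counts per gene, which are not scaled between libraries (48.2% of values whole to within 1e-06), and TPM values, scaled for transcript length and depth within each library. Both tables list 19454 genes, each with a summed count of at least 5, and TPM sums to 937835 to 948801 per library.

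Estimated counts were rounded. Genes were tested in R 4.3.3 with the quasi-likelihood test of edgeR 4.0.16 on all 9 libraries in 1 fit, with TMM factors (0.931 to 1.14), the default low-count filter by group (14461 genes kept, all 36 members among them) and Benjamini-Hochberg adjustment over all tested genes at 0.05. Standard errors were taken from the fold change and its F statistic. DESeq2 1.42.0 and limma 3.58.1 on log2(TPM + 1), where fold changes of low genes are understated, were alternatives, as were other scalings, filters and left-out libraries. Within groups, libraries differed by more than sampling noise (chi-squared per gene 2.45 to 7.75). That value cannot tell separate mice from separate preparations of the same cells. All 9 were kept as separate libraries. An exact permutation test of 3 libraries against 3 cannot give a two-sided p below 0.1, so none was used. Coordinates are those of GENCODE M21 (GRCm38, 1-based gene bounds; 19443 of 19454 identifiers matched). The plan was to name every gene of the MYC and p53 lists that was found in the data. Only some of them are named, and no rule set which. From each other list at most 4 genes per comparison, ranked by absolute log2 fold change, were open to be named. These passed the test and averaged at least 5 CPM over 9 libraries. The HSC and cell markers, Snu13, Polr1c, and genes that overlap or copy a member are named beyond that rule, after their values were seen.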

Additional observations from a re-analysis of the deposited data

How the results depend on the processing

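For the 36 genes, inhibition over control kept its counts within 1.5 times under all 16 alternatives (4 to 6 higher, 26 to 30 lower), spermidine over inhibition did not, and spermidine over control kept its lower count only. The cause was not tested, other than that total counts raise the median of all genes.

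With total counts, spermidine over inhibition had 14 higher and 6 lower of the 36, 62 and 12 of the other ribosome biogenesis genes and 7711 and 1793 of all tested genes, and spermidine over control had 46 higher and 56 lower other ribosome biogenesis genes. The log2 fold changes that turned in spermidine over inhibition were Polr1a 0.054, Tcof1 0.18, Mybbp1a 0.033, Fbl 0.18, Nop56 0.095, Nop58 0.090, Gar1 0.14, Nop10 0.0093, Nop14 0.16, Wdr43 0.054, Utp4 0.016, Nob1 0.10, Nop2 0.11, Nop16 0.081, Bop1 0.17, Pes1 0.23, Rrp1b 0.0017, Ddx18 0.20, Gnl3 0.25, Nolc1 0.061 and Ddx21 0.014. Those that turned in spermidine over control were Dkc1 0.019, Wdr75 0.17, Ebna1bp2 0.017 and Gnl3 0.058.

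With limma on log2(TPM + 1), spermidine over inhibition had 14 higher and 1 lower of the 36, 71 and 5 of the other ribosome biogenesis genes and 7112 and 1256 of all tested genes. In spermidine over control it had 6 of the 36 higher, 57 higher and 37 lower other ribosome biogenesis genes and 2811 of all tested genes lower. The values that turned in spermidine over inhibition were Polr1a 0.024, Tcof1 0.22, Mybbp1a 0.29, Fbl 0.23, Nop56 0.11, Nop58 0.15, Dkc1 0.030, Gar1 0.16, Nop10 0.032, Nop14 0.32, Wdr43 0.14, Utp4 0.059, Utp20 0.092, Heatr1 0.0023, Nob1 0.13, Nop2 0.12, Nop16 0.085, Wdr12 0.025, Bop1 0.15, Pes1 0.25, Ddx18 0.26, Gnl3 0.49, Nolc1 0.092 and Ddx21 0.040. In spermidine over control they were Dkc1 0.31, Nop14 0.054, Wdr43 0.051, Ebna1bp2 0.28, Gnl3 0.25 and Npm1 0.12, and in inhibition over control Wdr75 -0.12.

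A pseudocount of 0.1 gave 14 higher and 1 lower of the 36 in spermidine over inhibition, 72 and 5 of the other ribosome biogenesis genes and 7079 and 1226 of all tested genes. Spermidine over control then had 6 of the 36 higher, 58 higher and 37 lower other ribosome biogenesis genes and 2751 of all tested genes lower. The values that turned were Polr1a 0.040, Tcof1 0.26, Mybbp1a 0.32, Fbl 0.24, Nop56 0.11, Nop58 0.15, Dkc1 0.030, Gar1 0.17, Nop10 0.032, Nop14 0.36, Wdr43 0.14, Utp4 0.064, Utp20 0.12, Heatr1 0.014, Nob1 0.14, Nop2 0.16, Nop16 0.086, Wdr12 0.025, Bop1 0.21, Pes1 0.29, Ddx18 0.26, Gnl3 0.49, Nolc1 0.10 and Ddx21 0.049 in spermidine over inhibition, Dkc1 0.32, Nop14 0.059, Wdr43 0.052, Ebna1bp2 0.28, Gnl3 0.25 and Npm1 0.12 in spermidine over control and Wdr75 -0.13 in inhibition over control.

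Centring within GC bins, chosen after seeing the data, turned Dkc1 -0.15, Nhp2 0.053 and Npm1 -0.17 in inhibition over control and Gnl3 0.011 in spermidine over inhibition, and left 1 of the 36 higher in spermidine over control. DESeq2 called 0 of the 36 higher in spermidine over inhibition and 8 of the other ribosome biogenesis genes; its size factors in edgeR and no filter also gave 0 of the 36 higher, and no filter 1 higher in spermidine over control. Leaving out 1 library at a time gave 0 to 1 of the 36 higher and 20 to 22 lower in spermidine over inhibition, and 1 to 2 higher and 33 to 34 lower in spermidine over control. Values near 0 turned there in spermidine over inhibition: Polr1b (-0.019 to 0.17 over the 6 fits, -0.019 without inhibition replicate 1), Ubtf (-0.0054 to 0.15, -0.0054 without inhibition replicate 1), Bop1 (-0.27 to 0.024, 0.024 without spermidine replicate 1) and Pes1 (-0.094 to 0.0068, 0.0068 without spermidine replicate 2).

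The replicate numbers did not pair the libraries: residuals of same-numbered libraries correlated at -0.053 to 0.075. A fit with the replicate block gave 5 higher and 29 lower in inhibition over control, 2 and 20 in spermidine over inhibition, and 2 and 33 in spermidine over control, and changed no call of the 36 genes. Bop1 and Polr1b, at 6.04 and 4.93 CPM over 9 libraries, had the largest standard errors in inhibition over control (0.15 and 0.12).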

Other observations

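Assembly factors outside the 36 genes are described here for inhibition over control, where 36.1% of all tested genes fell and 36.2% rose. Among small nucleolar particle assembly factors, Nufip1 averaged 18.3 CPM in spermidine libraries, 20.3 CPM in inhibition libraries and 33.3 CPM in control libraries (-0.71, SE 0.055). Tgs1, of the same list, rose by 0.43 (SE 0.062). Of 11 tested genes of that list 5 fell and 5 rose, an even split like that of all tested genes. Among 47 other small subunit factors 26 fell and 13 rose, with Tbl3 at -0.99, Wdr46 at -0.99 and Nat10, an RNA acetyltransferase, at -0.90. Among 50 other large subunit factors 29 fell and 9 rose, with Nol9, a polynucleotide kinase of precursor rRNA, at 5.30 CPM in spermidine libraries, 7.18 CPM in inhibition libraries and 31.3 CPM in control libraries (-2.12, SE 0.081). Of the 16 exosome genes 7 were higher and 6 lower, also close to an even split, with Mtrex, its helicase, at 0.47 and Exosc5 at -0.50.

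In spermidine over inhibition, on the TMM scale, 23 of the 47 small subunit factors fell and 5 rose. Of the 50 large subunit factors 26 fell and 5 rose, where 28.9% of all tested genes fell and 29.1% rose. The log2 fold changes were -0.65 for Utp6, -0.58 for Noc4l, -0.58 for Ppan and -0.57 for Nol11. Among the fewer rises were 0.57 for Nol6 and 0.48 for Ddx55, an RNA helicase. Nol6 averaged 6.17 CPM in spermidine libraries, 4.2 CPM in inhibition libraries and 7.07 CPM in control libraries.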
